A study of Homo sapiens with 6 samples.

Results

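The outer 7 Mb of the short arm of chromosome 1 (distal 1p36, chr1:1-7000000 in hg19) held 1838 of the 198179 regions in which a peak of ubiquitylated or total H2A.Z was found, or 0.927%. The members are the merged regions whose midpoint lies in that interval: overlapping or touching peaks of the 2 deposited peak lists were joined, and the first member started at base 29126 and the last ended at base 6998775. All samples came from HEK293T, an established human embryonic kidney cell line, co-transfected with H2A.Z-1 fused at its C terminus to Flag and the biotin ligase BirA and with ubiquitin carrying at its N terminus the AviTag, the peptide that BirA biotinylates (plasmid ratio 3 to 1), and collected 48 hours later. Chromatin released by 30 minutes of micrococcal nuclease was recovered on streptavidin, which takes nucleosomes with biotinylated ubiquitin (ubiquitylated H2A.Z, 2 samples), on Flag agarose, which takes all tagged H2A.Z (total H2A.Z, 2 samples), or with an antibody to histone H3 (2 samples, used here in no comparison). The tagged histone was expressed from a plasmid beside the cells' own H2A.Z, and transfected ubiquitin was present in every group. No read counts or single-library values are in the lists, so sequencing depth is unknown and no replicate error can be given. How far replicates agreed is carried only by the authors' irreproducible discovery rate (IDR, low for a peak that repeats well) and false discovery rate (FDR).

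The histone variant H2A.Z is placed at promoters, enhancers and other regulatory sites by ATP-dependent remodelling complexes. A part of it carries a single ubiquitin on lysines near its C terminus, a mark laid down by the RING1B ligase of the Polycomb system and known from facultative heterochromatin such as the inactive X chromosome. Polycomb-bound chromatin in many cell types covers the loci of developmental regulators. Among the genes of distal 1p36 are SKI, a corepressor of TGF-beta signalling, PRDM16, a zinc finger transcriptional regulator of brown fat and haematopoietic stem cells, and TP73, a member of the p53 family. Further inwards lies AJAP1, which encodes a membrane protein of adherens junctions. In the order of protein-coding genes in the RefSeq table (GRCh38.p14, used for names and neighbours only), 12 genes lay between SKI and PRDM16, among them HES5, PEX10 and TNFRSF14. A further 5 lay between PRDM16 and TP73 and 6 between TP73 and AJAP1. No protein-coding gene stood between AJAP1 and NPHP4, a gene of the primary cilium. An hg19 annotation was not used here, so no member is placed in a gene, exon, intron or promoter.

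The stretch was chosen because it is rich in ubiquitylated H2A.Z, so its peak lists, fold changes and calls are given as descriptions, with no test. Ubiquitylated peaks outnumbered total H2A.Z peaks by 1691 to 1043, a ratio of 1.62, where the 2 lists over the whole genome were nearly equal in size (ratio 0.999). In covered bases the contrast was wider. Ubiquitylated peaks took up 1045 kb and total H2A.Z peaks 537 kb, a ratio of 1.95 against 1.04 over the genome. Ubiquitylated peaks had a mean width of 618 bp, against 412 bp in their complete list, and total peaks of 514 bp, against 395 bp.

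The makeup of the members differed from that of other regions in the parts found in 1 list alone. Of the 1838 members, 866 (47.1%, Wilson 95% interval 44.8 to 49.4%) had ubiquitylated peaks only, 191 (10.4%, 9.08 to 11.9%) had total H2A.Z peaks only, and 781 (42.5%, 40.2 to 44.8%) had both. Outside the stretch these shares were 28.7%, 29.3% and 41.9%. The part with peaks of both lists was close to that elsewhere, and the shares of the 2 single-list kinds differed in opposite directions. On the rest of chromosome 1 the order was the opposite, with 23.2% ubiquitylated only and 33.8% total only. The intervals cover counting error alone and treat neighbouring regions as independent, which they are not.

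Most differential members lay on the ubiquitylated side. Regions that the authors' deposited table lists with more signal in the streptavidin than in the Flag pull-down are called streptavidin-enriched below, and those of the opposite direction Flag-enriched. Of the members, 577 were streptavidin-enriched (31.4%, where 9.39% of all 198179 regions were) and 65 were Flag-enriched (3.54%, where 12.1% of all regions were). Of the 642 differential members (34.9%, genome-wide 21.5%), 89.9% (Wilson interval 87.3 to 92.0%) were thus streptavidin-enriched, against 43.0% outside the stretch and 31.1% on the rest of chromosome 1. The stretch holds 8.36% of the 21983 regions of chromosome 1 and 30.3% of that chromosome's 1904 streptavidin-enriched regions. Because the rule was drawn with this contrast in view, nothing is read from these shares against their backgrounds. The 2 forms were recovered with different reagents, and a difference between reagents and one in ubiquitylation cannot be told apart.

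Fold changes are known only for regions within the authors' FDR limit, so the medians below are of called regions alone. In the authors' deposited table the median fold change of the 577 members was 0.65 on what is read as a log2 scale (quartiles 0.52 and 0.82, range 0.33 to 2.98), beside 0.68 for regions outside the stretch. In the authors' deposited table, 68 of them differed at least 2-fold (3.70% of members, 1.47% of all regions), as did 11 on the Flag side (0.598%, 2.39% of all regions). The 65 Flag-enriched members had a median of -0.75 in the authors' deposited table (quartiles -0.95 and -0.59, extreme -1.85), beside -0.76 outside. The medians inside and outside the stretch lay close together on both sides. An FDR of at most 0.01 was reached by 365 members on the streptavidin and 36 on the Flag side of the authors' deposited table (19.9% and 1.96% of members, 5.26% and 7.21% of all regions).

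Peak lists and calls did not coincide. Of the 866 members with ubiquitylated peaks only, the authors' deposited table called 400 (46.2%) streptavidin-enriched and 0 Flag-enriched, while 466 were in neither differential list. Outside the stretch 23.4% of such regions were called streptavidin-enriched and 0.129% Flag-enriched. Nearly all calls of such regions thus had 1 direction, in the stretch and elsewhere. Among the 781 members with peaks of both lists, 176 (22.5%) were streptavidin-enriched and 19 (2.43%) Flag-enriched in the authors' deposited table, where the shares outside were 5.81% and 7.57%. Of the 195 differential members with peaks of both lists, 90.3% were streptavidin-enriched. The stretch was chosen on these calls, so this was not tested. Of the 191 members with total H2A.Z peaks only, 46 (24.1%) were Flag-enriched in the authors' deposited table, beside 30.5% outside. A lone member of that kind, chr1:1960424-1960751, was called streptavidin-enriched there (fold change 0.56, FDR 0.03).

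Members were broad. Their median width was 445 bp (quartiles 278 and 776 bp), against 313 bp outside the stretch and 293 bp on the rest of chromosome 1. Regions of at least 1500 bp made up 6.53% of members (120 regions) and 1.43% of regions outside. Width went with direction. Streptavidin-enriched members had a median of 694 bp, Flag-enriched ones 467 bp and those in neither list 360 bp. The order was the same outside the stretch, at 502, 362 and 295 bp. Of the 296 members of 1000 bp and over, 183 (61.8%) were streptavidin-enriched and 5 (1.69%) Flag-enriched in the authors' deposited table. Regions of that width outside the stretch were called at 27.3% and 12.6%. Among the 546 members under 300 bp, 81 (14.8%) were streptavidin-enriched and 21 (3.85%) Flag-enriched in the authors' deposited table, against 4.59% and 9.38% outside. In each of the 4 width classes the members called streptavidin-enriched were a larger part, and Flag-enriched ones a smaller part, than among regions of like width elsewhere. The stretch was chosen on these calls, and the part of width in them was not tested.

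**Figure D1:**
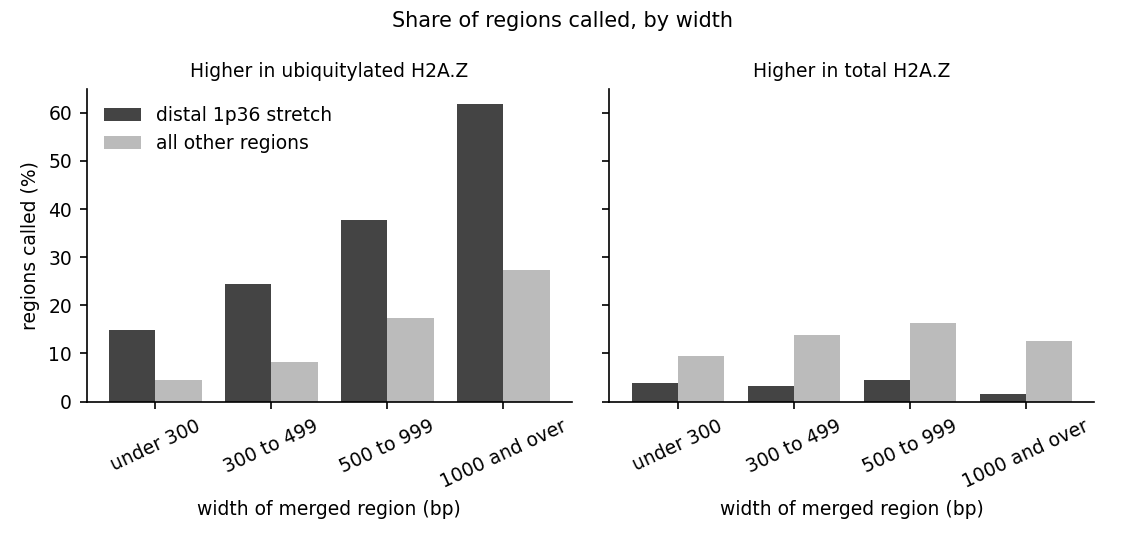
Share of merged regions called in the authors' deposited table (vertical axis, percent) in 4 classes of region width (horizontal axis, bp), for streptavidin-enriched regions (higher in ubiquitylated H2A.Z) on the left and Flag-enriched regions (higher in total H2A.Z) on the right. Dark bars are the 1838 members of the stretch and light bars all other regions. The dark bars on the left climb from 14.8% under 300 bp to 61.8% at 1000 bp and over, above the light bars in every class, and those on the right stay under 5%.

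Some broad members joined several peaks of 1 list with fewer of the other. Among the 781 members with both kinds, 53 (6.79%) held more total than ubiquitylated peaks and 34 (4.35%) the reverse. Outside the stretch the order was the opposite, 2.69% and 3.23%. The 53 had a median width of 1627 bp, and 26 of them were streptavidin-enriched and 0 Flag-enriched in the authors' deposited table. Regions with more total peaks leaned the same way outside the stretch, where 507 of 2219 were streptavidin-enriched and 50 Flag-enriched. The 5 widest members all lay between 2 and 4 Mb and held peaks of both lists. The widest, chr1:2614396-2620006 (5611 bp), was 1 ubiquitylated peak over 4 total H2A.Z peaks, with a fold change of 0.80 and an FDR of 3e-15 in the authors' deposited table. The next, chr1:2403705-2408712 (5008 bp), had 1 and 2 peaks and a fold change of 0.42 (FDR 0.00071) in the authors' deposited table. For chr1:2792948-2797313 (4366 bp) it was 0.70 with an FDR of 2.4e-09 in the authors' deposited table. The region chr1:2396707-2400426 (3720 bp, 2 peaks of each list) had 0.34 and an FDR of 0.0065 in that table. The fifth, chr1:2572792-2576372 (3581 bp), was in neither differential list.

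For both lists the median IDR was slightly higher in the stretch than in the complete list. The median IDR of ubiquitylated peaks was 0.00147, beside 0.00137 in the complete list, and 79.4% were at or under 0.01, beside 83.1%. For total H2A.Z peaks the median was 0.00397 in the stretch and 0.00335 in the complete list, and 70.6% were at or under 0.01, beside 74.1%. The ubiquitylated peaks with the lowest IDR were chr1:3408416-3408970, chr1:4200341-4200727, chr1:855369-856344, chr1:1371356-1372084 and chr1:4278554-4278888. Those of total H2A.Z were chr1:1079429-1080624, chr1:1976517-1976955, chr1:1057093-1057624, chr1:6535382-6535702 and chr1:6053154-6054053. All 10 lay in members with peaks of both lists. In the authors' deposited table chr1:3408416-3408970 (fold change 0.43, FDR 0.025) and chr1:855369-856344 (0.38, FDR 0.027) were streptavidin-enriched, and the last of the total list was Flag-enriched (-0.58, FDR 0.002). The other 7 members were in neither differential list.

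The 14 tiles of 0.5 Mb along the stretch were not alike. Ubiquitylated peaks outnumbered total H2A.Z peaks in all 14, though only by 67 to 66 between 6.5 and 7.0 Mb. Streptavidin-enriched regions outnumbered Flag-enriched ones in 13. The number of members ranged from 31 in the outermost tile to 256 between 2.5 and 3.0 Mb, with a median of 153.5. Calls were densest between 2.5 and 3.5 Mb, where 53.9% and 55.3% of the members of the 2 tiles were streptavidin-enriched in the authors' deposited table. The tile from 3.0 to 3.5 Mb also had the largest part of members with ubiquitylated peaks only (74.8%), with 157 ubiquitylated and 41 total H2A.Z peaks. Streptavidin-enriched members made up 100% of the differential members in the 4 tiles from 4.0 to 6.0 Mb. Their share was lowest in the innermost tile, from 6.5 to 7.0 Mb, at 10 of 21 (47.6%, Wilson interval 28.3 to 67.6%), and next lowest between 1.5 and 2.0 Mb, at 28 of 46 (60.9%, 46.5 to 73.6%).

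**Figure D2:**
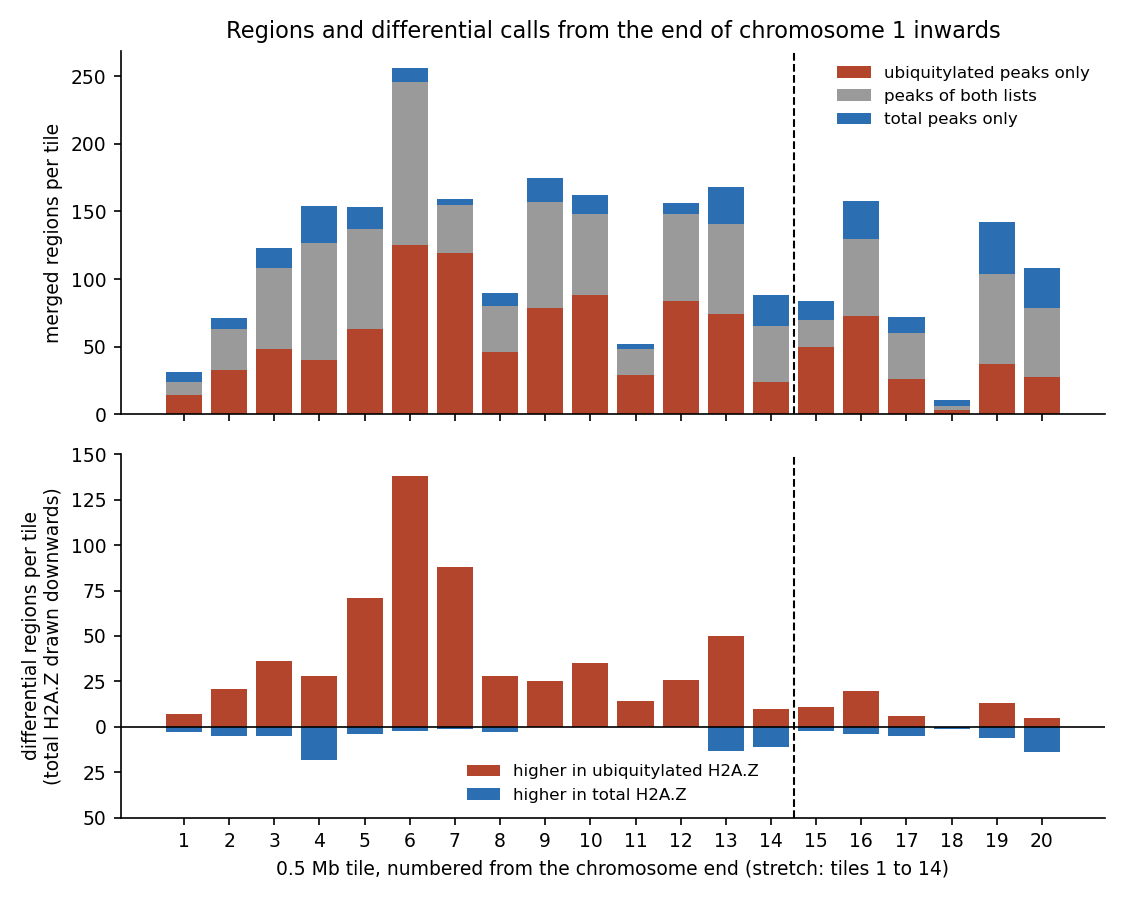
Counts in 0.5 Mb tiles (horizontal axis, tile number from the end of chromosome 1). The upper panel gives merged regions per tile by the lists that hold their peaks, the lower panel differential regions per tile, with Flag-enriched ones drawn downwards. The dashed line marks the inner limit of the stretch after tile 14. Tile 6 holds the most members (256) and the most streptavidin-enriched members (138), and tiles 9 to 12 hold no Flag-enriched member.

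The tiles were joined into 4 sections, set after the tile values were seen. From 0 to 2 Mb there were 379 members (189.5 per Mb) of median width 518 bp, and the authors' deposited table called 92 streptavidin-enriched and 31 Flag-enriched. From 2 to 4 Mb there were 658 members (329 per Mb) of median width 607 bp, with 325 called streptavidin-enriched and 10 Flag-enriched in the authors' deposited table. This section alone gave 325 of the 577 calls on the ubiquitylated side. It held 78 of the 120 members of at least 1500 bp.

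The section from 4 to 6 Mb looked different from its neighbours although its calls were the most one-sided. It held 545 members (273 per Mb), of which 280 (51.4%) had ubiquitylated peaks only, but their median width was 308 bp, close to the 313 bp found outside the stretch. The authors' deposited table called 100 of the 545 (18.3%) streptavidin-enriched and 0 Flag-enriched, a smaller called part than the 49.4% between 2 and 4 Mb. In the authors' deposited table the median fold change of the 100 called members was 0.73, against 0.64 between 2 and 4 Mb and 0.57 between 0 and 2 Mb. From the outside in, the median widths of these sections were 518, 607 and 308 bp, and the part of width in the fold changes was not tested. From 6 to 7 Mb, 256 members of median width 419 bp gave 60 streptavidin-enriched and 24 Flag-enriched members in the authors' deposited table.

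Just beyond the 7 Mb limit most calls were still streptavidin-enriched, but such calls were a smaller part of the regions. From 7 to 8 Mb, 50.8% of 242 regions had ubiquitylated peaks only. The authors' deposited table called 31 of the 242 streptavidin-enriched and 6 Flag-enriched. Streptavidin-enriched regions were 83.8% of these calls (Wilson interval 68.9 to 92.3%). The shares from 6 to 7 Mb (71.4%) and from 1 to 2 Mb (73.6%) lay within that interval. Of all regions from 7 to 8 Mb, 12.8% were streptavidin-enriched, against 23.4% from 6 to 7 Mb and 9.39% genome-wide. From 8 to 9 Mb the calls were 6 and 6 in the authors' deposited table, and from 9 to 10 Mb 18 and 20. Over all of 7 to 10 Mb, 575 regions had a median width of 311 bp, and the authors' deposited table called 55 (9.57%) streptavidin-enriched and 32 (5.57%) Flag-enriched. Of the 2 regions nearest to the 7 Mb limit on each side, 1 was differential. Just inside it, chr1:6990762-6991060 was in neither differential list and chr1:6998357-6998775 was streptavidin-enriched in the authors' deposited table (fold change 0.61, FDR 0.031). Just outside, chr1:7010917-7011077 was in neither list and chr1:7011802-7012076 was streptavidin-enriched there (0.79, FDR 0.018). Between 7 and 28 Mb, the inner 1p36 to 1p35 part of the arm, regions were sparser (169 per Mb against 263 in the stretch). There 39.4% of the 678 differential regions were streptavidin-enriched.

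Of the 10 streptavidin-enriched members with the lowest FDR, 7 had ubiquitylated peaks only and 3 had peaks of both lists. They ranged in width from 379 to 5611 bp. The first of the 10 was chr1:5663366-5664070 (705 bp, ubiquitylated peak only), with a fold change of 2.98 and an FDR of 1.5e-19 in the authors' deposited table. This was also the largest fold change of the stretch. A second member 119 bp further on, chr1:5664190-5664546, had the second largest fold change in the authors' deposited table, 2.28 (FDR 6.3e-09). Both stand at the inner edge of a group of 10 members that starts at base 5652980. The other 8 of that group were in neither differential list, and 6 of those had peaks of both lists. Both enriched members thus adjoin H2A.Z regions without a called difference.

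Another narrow member of the section from 4 to 6 Mb, chr1:5715837-5716215 (379 bp), had a fold change of 1.88 and an FDR of 3.6e-15 in the authors' deposited table. The widest member, given above, came second by FDR. Of the others with peaks of both lists, chr1:1529215-1532763 (3549 bp, 1 ubiquitylated over 3 total H2A.Z peaks) had 0.85 and an FDR of 4.1e-13 in the authors' deposited table. The region chr1:2602159-2603867 (1709 bp) had 0.89 and an FDR of 2e-10 there. The remaining 5 with the lowest FDR were chr1:3412706-3415552, chr1:1002846-1003639, chr1:2608751-2612286, chr1:1220731-1223366 and chr1:3255041-3255983, all with ubiquitylated peaks only and with fold changes between 0.78 and 1.35 in the authors' deposited table. The 10 members with the largest fold changes all had ubiquitylated peaks only and were 201 to 705 bp wide. Between 4 and 6 Mb lay 6 of these, where 2 of the 10 with the lowest FDR lay. Besides the 3 narrow members above these were chr1:5375384-5375584 (1.76 in the authors' deposited table), chr1:3349659-3350057 (1.70), chr1:2170016-2170288 (1.68), chr1:4572320-4572687 (1.50), chr1:3790654-3791259 (1.46), chr1:5488683-5489052 (1.45) and chr1:663188-663463 (1.44).

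**Figure D3:**
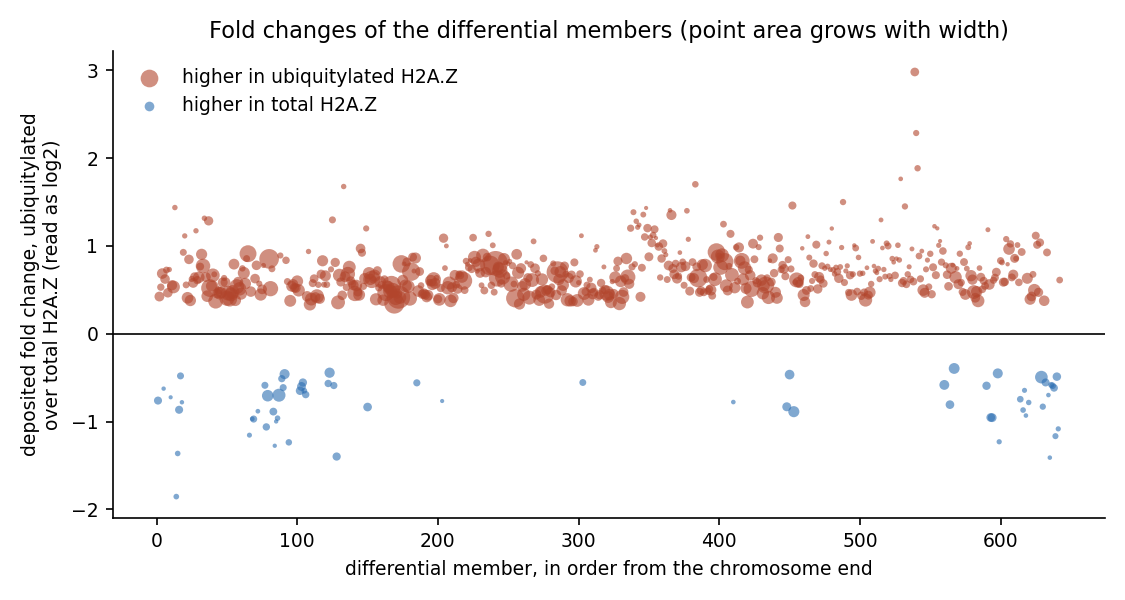
Deposited fold change of ubiquitylated over total H2A.Z, read as log2 (vertical axis), for the 642 differential members in order from the chromosome end (horizontal axis). Point area grows with the width of the region. Most Flag-enriched members lie near either end of the order, and the highest point, 2.98, belongs to the section from 4 to 6 Mb.

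Most of the 65 Flag-enriched members lay near either end of the stretch. Of these, 31 lay in the outer 2 Mb (8.18% of the members there) and 24 between 6 and 7 Mb (9.38%). The section from 2 to 4 Mb held 10 (1.52%) and that from 4 to 6 Mb none. Even the higher shares, near the ends, were below the 12.1% of all regions that were Flag-enriched. They had total H2A.Z peaks only in 46 cases and peaks of both lists in 19. The lowest FDR in the authors' deposited table belonged to chr1:2130911-2131535 (fold change -1.40, FDR 5.2e-10), inside the second section, which was otherwise poor in such calls. Next in the authors' deposited table came chr1:3817226-3818363 (-0.89, FDR 1.1e-07), a region of 1138 bp with peaks of both lists, and chr1:713695-713991 (-1.85, FDR 4.5e-07), the largest fold on that side. The other 7 of the 10 were chr1:1510397-1510898, chr1:6264701-6265426, chr1:6260106-6260805, chr1:1622919-1624482, chr1:29472-30071, chr1:1828761-1829148 and chr1:762268-762867, with FDR values from 8.5e-06 to 5.6e-05 in the authors' deposited table. The neighbours chr1:6264701-6265426 and chr1:6260106-6260805 had almost equal fold changes in the authors' deposited table, -0.96 and -0.95.

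Streptavidin-enriched calls followed one another in long series. Of all calls in the stretch 89.9% had that direction, and the stretch was chosen on these calls. The length of the series is therefore a description and was not tested. Read from the chromosome end, the 642 differential members formed 35 streptavidin-enriched and 35 Flag-enriched series. Of the latter, 23 were single regions, and the longest held 8 regions over chr1:6664002-6803131 (139 kb). On the ubiquitylated side 3 series held 311 of the 577 calls. The first held 106 calls over chr1:2839642-3444681 (605 kb), where the authors' deposited table gives a median of 0.75. The second, also of 106, stretched over chr1:3826947-6050350 (2223 kb), with a median of 0.73 in the authors' deposited table, and 99 lay in chr1:2519782-2838056 (318 kb), with a median of 0.66. The series of equal number differed 3.67-fold in length, and the inner one included 556 members in all and the outer one 213. Between the first and the last of these stood 1 Flag-enriched member, chr1:2838535-2838975, and without it both would have run on for 205 calls.

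Members lay closer together than regions on the rest of chromosome 1, and most lay in groups. Some other chromosome ends held more regions: by number in the outer 7 Mb the stretch ranked 11 of 39. The median gap between neighbours was 648 bp, against 2495 bp on the rest of chromosome 1 and 1461 bp between 7 and 28 Mb, and 60.2% of gaps were at most 1 kb. Members chained at gaps of up to 5 kb formed 231 groups, and 52 groups of at least 10 members held 1309 members (71.2%). The widest gap without any member was 153 kb, from base 3842235 to 3995371. The largest group, chr1:2762343-2869191 (107 kb), held 84 members, of which 45 were streptavidin-enriched and 1 Flag-enriched in the authors' deposited table. Of the groups of at least 10 members, the highest called part was in chr1:2583511-2634196 (50.7 kb). There 33 of 35 members were streptavidin-enriched in the authors' deposited table and 0 Flag-enriched, 22 had ubiquitylated peaks only and none had total peaks only. Regions covered 38.9 kb of its 50.7 kb.

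Groups with calls of both directions were fewer than groups with calls of a single direction. Of 160 groups with a differential member, 118 held streptavidin-enriched members alone, 20 held Flag-enriched members alone and 22 held both. A group with a lone call cannot hold both directions. Among the groups with a Flag-enriched member, 22 also held streptavidin-enriched members and 20 did not. The 22 mixed groups contained 38 of the 65 Flag-enriched members and included the largest group, given above. The second largest group, chr1:1823013-1926547 (75 members over 104 kb), was also mixed, with 17 streptavidin-enriched and 6 Flag-enriched members in the authors' deposited table. The nearest differential neighbour within the stretch had the same direction for 546 of 577 streptavidin-enriched members (94.6%) and for 34 of 65 Flag-enriched members (52.3%). Of all calls in the stretch 89.9% had the first direction and 10.1% the second. No test was made, since the stretch was chosen on these directions.

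The lean towards ubiquitylated H2A.Z varied among chromosome ends. The outer 7 Mb of 39 chromosome ends held at least 100 regions each, with the lower-numbered end measured from the first base and the other from the last region. By the share of differential regions that were streptavidin-enriched, the distal 1p36 stretch ranked 6 of 39 at 89.9% (other ends 18.8 to 94.1%, median 71.1%). By the share of all regions so called it ranked 2 at 31.4% (other ends 3.12 to 35.8%, median 14.8%), behind the start of chromosome X, which has 165 regions. Its 577 calls were more than at any of the other 38 ends, which reached 432. In median width it ranked 2 at 445 bp (other ends 269 to 459 bp). By number of regions it ranked 11 at 1838 (other ends 159 to 2542). The opposite end of the same chromosome differed from the stretch. Of 403 regions in the outer 7 Mb of 1q, 23 (5.71%) were streptavidin-enriched and 40 (9.93%) Flag-enriched in the authors' deposited table. Both shares were below those of all regions, 9.39% and 12.1%. These ranks describe the lists and carry no test.

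**Figure D4:**
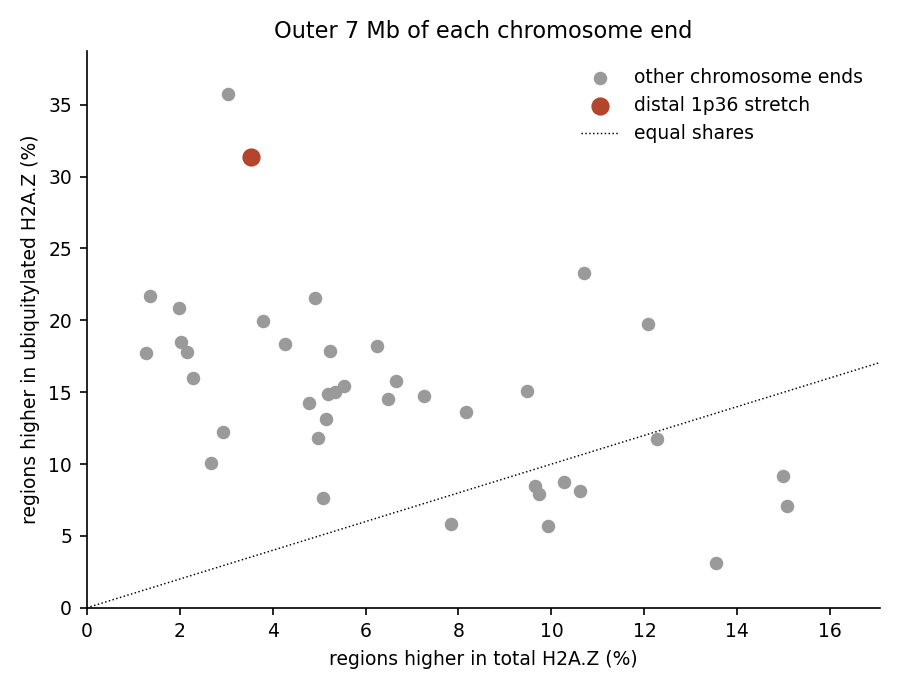
Share of merged regions that were Flag-enriched (horizontal axis, percent) and streptavidin-enriched (vertical axis, percent) in the outer 7 Mb of 39 chromosome ends with at least 100 regions. Each point is 1 end and the dotted line marks equal shares. The distal 1p36 stretch lies at 3.54% and 31.4%, and 1 end lies above it.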

How the data were processed

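The submitters' processing notes name Bowtie, SAMtools, MACS2, edgeR and hg19, without versions or settings. The authors deposited 1 peak list each for ubiquitylated and total H2A.Z, with a value per peak read as the IDR, a kind of q-value that never exceeds 0.05 (local or global is not stated). The authors deposited 2 lists of differential regions with an FDR (at most 0.05) and a fold change read as log2, since edgeR writes that scale; their normalization between libraries is not given, so every direction is relative to it. Whether the replicates were separate cultures is not stated.

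Starts were raised by 1 base. Peaks that overlapped or touched were merged, and all 42574 differential regions matched 1 merged region exactly. Merging and calls were tested on simulated peaks. No count model was possible. Shares carry Wilson 95% intervals. Tiles were 0.5 Mb, groups were chained at gaps up to 5 kb, and tiles were ranked with at least 10 differential regions. Named regions are the 10 of lowest FDR in each direction, the 10 largest folds towards ubiquitylated H2A.Z, the 5 widest, the 5 peaks of lowest IDR per list and the 2 on each side of 7 Mb; the groups and the chr1:1960424-1960751 region were chosen after their values were seen. The stretch, its members and all lists were chosen with earlier results of these data known. Computation used pandas 2.3.3, numpy 2.4.6 and scipy 1.17.1 under Python 3.11.15, with plots by matplotlib 3.10.9.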

Additional observations from a re-analysis of the deposited data

How the results depend on the processing

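No paired analysis was possible because single-library values are not in the lists, so leaving out a replicate and a replicate block (2 alternatives) were not run. Of 37 alternatives, 3 of them chosen after seeing the data, 16 stayed within the counting interval of the main value or within 1.5 times a count. None reversed the direction of the calls over the stretch as a whole. With peaks of IDR up to 0.01 the part with ubiquitylated peaks only was 53.6%, and the median IDR fell to 0.000866 (ubiquitylated) and 0.00209 (total) by construction. With 50% of both peaks required to overlap, 37.6% of ubiquitylated peaks overlapped a total peak, against 48.8% at 1 bp. The share of differential members higher in ubiquitylated H2A.Z was 92.1% in the outer 5 Mb, 86.7% in the outer 10 Mb, 86.1% at 2-fold or more and 84.4% in members under 500 bp. Median widths were 474 bp (5 Mb) and 395 bp (10 Mb). At an FDR up to 0.01 the median fold changes were 0.72 and -0.89, and the longest series held 198 (ubiquitylated) and 5 (total) calls. At 2-fold or more these were 1.14 and -1.24, and 56 and 4 calls. The longer series at the stricter FDR followed from the loss of calls in the other direction. Tiles of 1 Mb gave a lowest share of 71.4%. Groups numbered 476 at gaps up to 2 kb and 123 at gaps up to 10 kb.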
